A study of Drosophila melanogaster with 16 samples.

Results

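The Drosomycin family is the group of 7 small genes that the annotation names Drs and Drsl1 to Drsl6. Its members were taken by gene symbol, and all 7 were found among the 17039 genes of the libraries described here. Their RNA was measured in 16 bulk RNA-seq libraries of the adult Drosophila foregut. The flies were mated Canton-S females reared axenically, that is, without microbes. The groups were salivary gland (SG) with LpWF (n = 3), crop with LpWF (n = 3), proventriculus (PV) with LpWF (n = 5) and axenic PV (n = 5), where LpWF is a strain of the gut commensal Lactiplantibacillus plantarum added to the fly culture in adulthood. The crop and PV tables deposited for flies with LpWF share a code in their names, whereas the SG tables carry a different one. The LpWF condition of SG was taken from the sample labels. It is also given in the methods of the study, where all flies but those for axenic PV received LpWF. About 30 PVs or crops, or about 20 pairs of SGs, were pooled for a library. PV and crop RNA was extracted on columns and depleted of ribosomal RNA, whereas SG RNA was extracted with TRIzol and selected for poly(A). SG and the other tissues therefore differed in RNA preparation as well as in origin, and the part of each in a difference cannot be told apart. The age of the flies was not given in the labels, and neither was it stated that the libraries of a group came from separate fly cultures, so p-values measure only the spread between these libraries.

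Drosomycin, the product of Drs, is a secreted antifungal peptide held together by disulfide bonds. The fat body releases it into the hemolymph during systemic infection under control of the Toll pathway, and surface epithelia such as those of the SG, trachea and reproductive tract can make it locally without Toll. The Drsl genes encode related peptides, some of which are known from the gut, where Drsl3 has been placed under the JAK-STAT pathway. The question behind the comparison of tissues and of LpWF with axenic flies is where in the foregut each member is made without infection, and which members change when a commensal is present.

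The 7 genes lie within 55594 bases of chromosome arm 3L in the release 6 assembly, with coordinates taken from Ensembl release 115. Drsl2 (FBgn0052279, 3314349 to 3314681), Drsl3 (FBgn0052283, 3314996 to 3315355), Drsl4 (FBgn0052282, 3315620 to 3315942) and Drsl5 (FBgn0035434, 3316781 to 3317144) follow each other on the plus strand, with 264 to 838 bases between neighbours. Drsl1 (FBgn0052274, 3335579 to 3335788) and Drsl6 (FBgn0052268, 3336032 to 3336418) form a pair on the minus strand, 18434 bases after Drsl5. Drs (FBgn0283461, 3369556 to 3369942) stands alone on the plus strand, 33137 bases after Drsl6, with kst, which encodes a spectrin of the cell cortex, between them. Each member has 1 protein-coding transcript, and no other annotated gene overlaps any of them. Every deposited read number of a member was exactly a whole number, with no tolerance, in all 16 libraries, so no fractional assignment between similar transcripts was seen.

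Reads assigned to genes numbered 18186391 to 45500807 per library. Levels are given as coding TPM, the deposited TPM (a length-corrected share of transcripts) rescaled to a total of 1000000 over the 13619 protein-coding genes, because these genes held 98.5 to 99.3% of deposited TPM in SG and only 29.1 to 60.0% in crop and PV libraries. Differences were tested on read counts with edgeR (quasi-likelihood F test, Benjamini-Hochberg adjusted over all genes tested), and a gene was called at an adjusted p under 0.05. Ribosomal RNA held 0.843 to 1.01% of reads in SG, 6.14 to 10.5% in crop, 15.3 to 38.9% in PV with LpWF and 19.1 to 43.4% in axenic PV. It was over 25% in replicates 4 and 5 of both PV groups. The 10 highest genes took 87.7 to 89.2% of coding TPM in SG, against 12.2 to 15.5% in crop, 38.2 to 50.9% in PV with LpWF and 39.3 to 50.3% in axenic PV, which lowers the coding TPM of every other SG gene. Tissue labels were set against marker genes. LysP, a salivary lysozyme, averaged 6156 coding TPM in SG, 3.08 in crop and 7.69 in PV with LpWF, and sage, a salivary gland transcription factor, averaged 24.9, 0.459 and 1.54 in the same order. Of 5 SG markers, 4 were called higher by counts in SG than in PV with LpWF, and Jhbp14 was called lower (log2 fold change -2.18). On the coding TPM scale the called genes fkh and CrebA were also lower in SG. The 7 crop and muscle markers summed to 13600 to 15990 coding TPM in crop and 890 to 1172 in PV with LpWF, and the 7 PV markers summed to 3444 to 7342 in crop and 15610 to 28580 in PV with LpWF. Of these 7, 5 were called lower in crop than in PV with LpWF, while bond (log2 fold change 2.66) and CG4267 (1.79) were called higher.

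A different member led in each tissue. In SG the family RNA was almost entirely Drs, in PV it was mainly Drsl2 followed by Drsl3, and in crop, where the family was scarce, Drsl5 had the highest mean. Summed over the 7 genes, the family reached 249.8 ± 20.7 coding TPM in SG (SD, n = 3), 24.0 ± 3.31 in crop (SD, n = 3), 143 ± 115 in PV with LpWF (SD, n = 5) and 80.0 ± 60.3 in axenic PV (SD, n = 5). Drs held 99.6 to 99.7% of this sum in the 3 SG libraries. Drsl2 was the leading member in all 10 PV libraries, at 64.8 to 84.2% of the sum with LpWF and 47.1 to 75.8% in axenic PV. Drsl5 led in crop replicates 1 and 3, with 81.2 and 61.1%, and Drs led in replicate 2, with 63.5%.

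**Figure D1:**
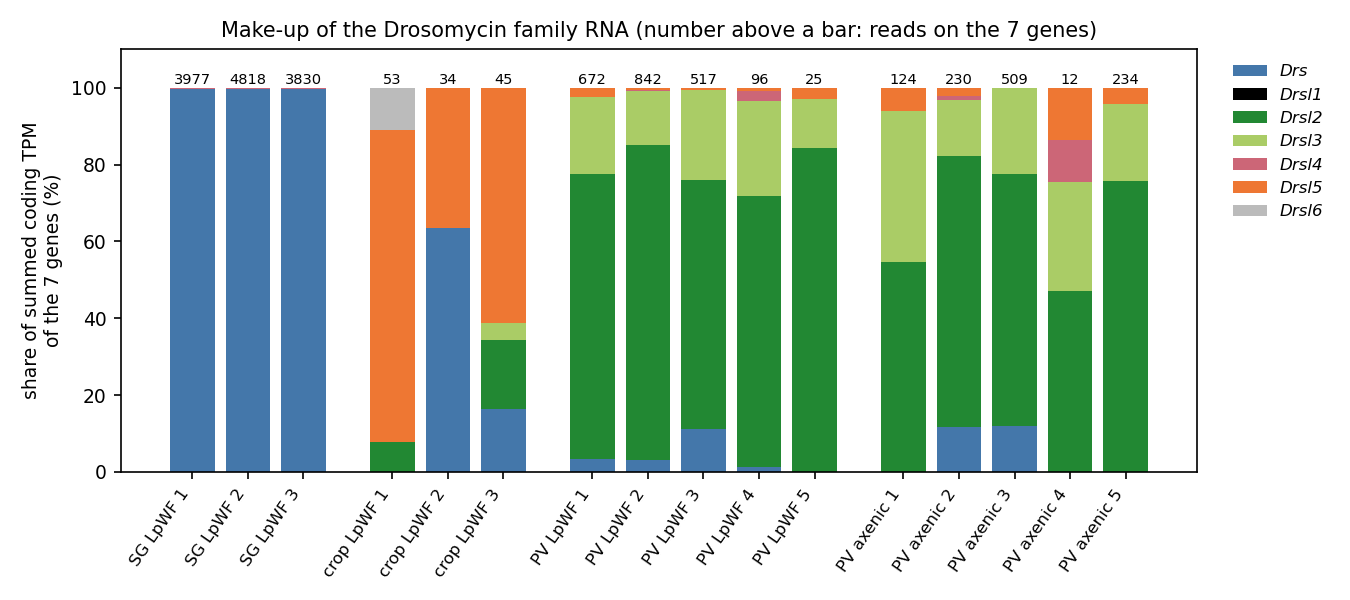
Each bar is 1 library and shows, in percent, how the summed coding TPM of the 7 genes divided between them, with the number of reads behind the bar printed above it. Drs fills the 3 SG bars, Drsl2 is the largest part of all 10 PV bars, and the crop bars rest on only 34 to 53 reads.

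Drs was high in SG. It had 3969, 4805 and 3823 reads in the 3 SG libraries, or 249, 270 and 229 coding TPM. That placed it at rank 103 to 113 among protein-coding genes in single libraries and at rank 110 by its mean of 248.9 ± 20.5 coding TPM (SD, n = 3). Crop libraries had 0, 23 and 9 Drs reads, which is 0, 12.9 and 4.10 coding TPM. PV libraries with LpWF had 34, 39, 83, 2 and 0 reads, which is 8.19, 8.12, 15.9, 0.603 and 0 coding TPM. Every SG library was above every library of the other tissues, and crop and PV overlapped each other.

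By counts, Drs averaged 198 ± 5.39 TMM-normalized CPM in SG (SD, n = 3) and 0.562 ± 0.548 in PV with LpWF (SD, n = 5). The log2 fold change was 8.28 (standard error 0.75, adjusted p = 4.44e-05 with edgeR). Against crop it was 9.76 (standard error 0.84, adjusted p = 0.000322 with edgeR), with 239 ± 12.96 CPM in SG and 0.302 ± 0.355 in crop (SD, n = 3 each). Among all genes tested, 35.2% were called higher and 41.3% lower in SG than in PV with LpWF, and 36.6% higher and 39.5% lower in SG than in crop, so a call as such was common in these comparisons. All libraries stood apart, with SG above, for 34.0% of genes against PV with LpWF and 38.6% against crop. The size of the Drs difference depended on the scale and its direction did not. The SG mean was 37.9 times the mean of PV with LpWF in coding TPM, 63.2 times with full transcript lengths and 89.6 times in deposited TPM. It was 202 times that mean when the 10 highest genes of each library were left out of the total. In CPM normalized over all 16 libraries it was 350 times. The median of all genes tested was shifted by -0.14 on the log2 scale in SG against PV with LpWF, small beside the change of Drs.

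The other members were nearly absent from SG. Drsl3 had 0 reads in all 3 libraries, Drsl2 had 0, 3 and 2, Drsl5 had 2, 0 and 0, Drsl6 had 0, 4 and 0, and Drsl1 had none. Drsl4 had 6, 6 and 5 reads, or 0.704, 0.631 and 0.560 coding TPM. Its other reads were 0, 3, 0, 2 and 0 in PV with LpWF, 0, 2, 0, 1 and 0 in axenic PV, and 0 in each crop library. Drsl4 was thus the most even minor member in SG, though at 17 reads it did not pass the filter on low counts for either SG comparison. Scaled by library size, its summed rate was 12.2 times that of PV with LpWF (95% exact interval for counting error only, 4.31 to 42.2), and at least 13.04-fold higher than in crop, taking 3 reads over the 3 crop libraries as the floor. This excess over PV was seen by counts only. In coding TPM the Drsl4 means were 0.632 in SG and 0.460 in PV with LpWF. On that scale the libraries overlapped, with PV with LpWF replicates 2 and 4 at 1.17 and 1.13. Without the filter Drsl4 was called by counts in both SG comparisons, with an edgeR adjusted p of 0.0161 against PV and 0.00575 against crop. DESeq2 also called it (adjusted p = 0.0080 and 0.00126). The neighbour kst did not share the SG level of Drs, and its mean coding TPM was 3.57 in SG, 149 in crop and 126 in PV with LpWF.

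**Figure D2:**
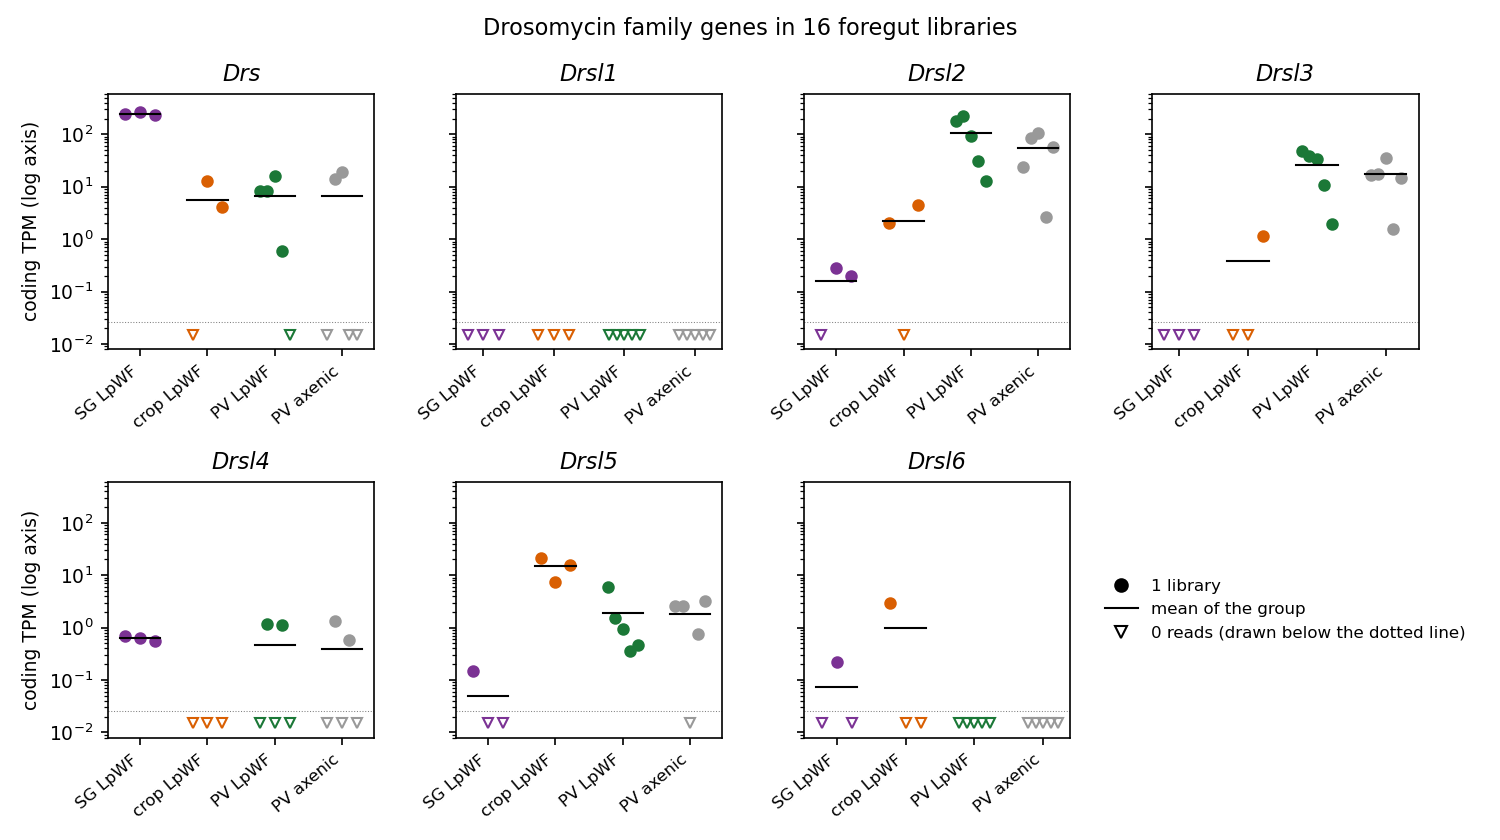
Coding TPM of each member on a log axis, with 1 point per library, a line at the group mean, and open triangles below the dotted line for libraries with 0 reads. Drs stands at 229 to 270 in SG, Drsl2 and Drsl3 are highest in the 2 PV groups, Drsl5 is highest in crop, and Drsl1 has no reads anywhere.

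Other immune effectors were low in SG on the coding TPM scale. The 18 other genes regarded as Toll-regulated effectors, mainly the Bomanins, daishos, Baramicins and Mtk, summed to only 58.9 to 81.5 coding TPM in SG, less than Drs alone in every SG library. In crop the same genes summed to 3379 to 8956 coding TPM, and Drs stood at 0 to 12.9. Against crop, 9 of the 13 of them tested were called lower in SG and 1 higher, with log2 fold changes of -4.74 for BaraA2, -4.43 for BomS1 and -3.11 for BomT1. Against PV with LpWF, 1 of 13 was called higher and 0 lower by counts, with a median of 0.10 beside -0.14 over all genes. DESeq2 called 2 higher and 1 lower of 17. The 1 called by edgeR was Dso1, a daisho peptide gene, with a log2 fold change of 1.56 by counts (adjusted p = 0.0118), while its coding TPM was lower in SG, at 5.83 against 17.9.

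The 16 IMD-regulated effectors, which include the diptericins, attacins and cecropins, summed to 17.3 to 20.2 coding TPM in SG and 3758 to 33320 in PV with LpWF. Of 15 tested in this comparison, 13 were called lower in SG and 1, PGRP-LB, higher. DptA fell by 12.18 on the log2 scale, and AttA and AttD had no reads in any of the 3 SG libraries. PGRP-LB, which breaks down peptidoglycan, was higher in SG by counts but lower on the coding TPM scale, at 17.5 in SG against 54.7. It thus made up most of the SG sum. High Drs in SG thus came with Toll-regulated and IMD-regulated effector sums below those of both other tissues on the coding TPM scale. By counts this did not hold for the Toll-regulated effectors against PV with LpWF, where edgeR called 0 of 13 lower and 1 higher in SG. For the IMD-regulated effectors against crop, counts did not settle it. Only 4 of the 16 passed the filter there, with 1 called higher and 1 lower in SG (median log2 fold change -1.93). DESeq2 called 1 higher and 1 lower of 13.

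**Figure D3:**
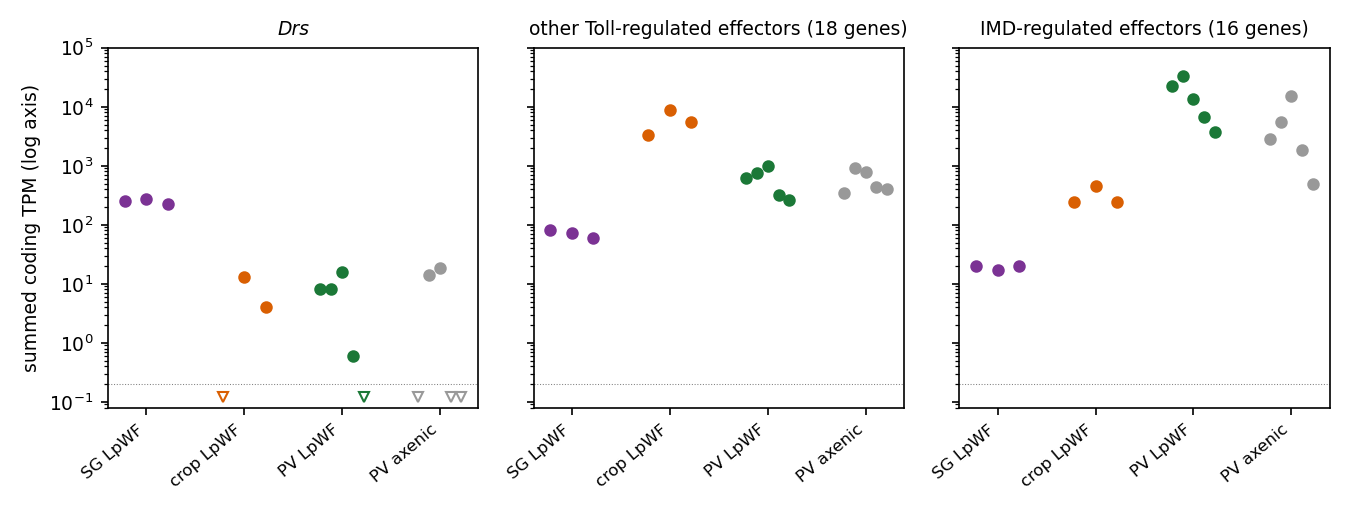
Coding TPM of Drs, and the summed coding TPM of the 18 other Toll-regulated and 16 IMD-regulated effectors, on a shared log axis with 1 point per library and open triangles for 0 reads. The IMD-regulated sum includes the regulators pirk and PGRP-LB. SG libraries are highest for Drs and lowest for both effector sums, crop libraries are highest for the Toll-regulated sum, and PV libraries with LpWF reach 33320 for the IMD-regulated sum.

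Fat body and hemocytes are known sources of Drs, and their markers were low in SG. The 8 fat body markers summed to 50.4 to 56.0 coding TPM in SG, against 2036 to 2816 in crop and 1057 to 2603 in PV with LpWF. By counts, 6 of 6 tested were called lower in SG than in PV with LpWF (median log2 fold change -2.85). Against crop 6 of 6 were also called lower (median -1.97). Fbp1 and Lsp2 averaged at most 0.136 coding TPM in every group and do not separate the tissues. The 8 hemocyte markers summed to 3.46 to 4.15 in SG, against 326 to 340 in crop and 58.1 to 81.3 in PV with LpWF, and He averaged 0 in SG, 0.253 in crop and 0.0782 in PV with LpWF. By counts the hemocyte differences were smaller. Of those tested, 5 of 6 were called lower in SG than in PV with LpWF (median log2 fold change -1.12), and 6 of 7 lower than in crop (-1.47). The spermatheca, another site of Drs, was represented by Send1, at 0 in all groups, and Send2, which averaged 0.00978 in SG, 0.688 in crop and 0.134 in PV with LpWF. The 4 tracheal markers summed to a median of 0.312 in SG, 44.0 in crop and 3.04 in PV with LpWF. By counts they were divided. In SG 1 was called higher (log2 fold change 3.72) and 2 lower than in PV with LpWF, and 1 higher (2.69) and 3 lower than in crop. Tissue was bulk, so a difference in the number of cells of a type and a difference in RNA per cell cannot be told apart.

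Components of the Toll pathway, from recognition proteins to the NF-kappaB factors Dif and dl, were present but uneven in SG. Of 20 tested against PV with LpWF, 5 were called higher and 10 lower, with a median log2 fold change of -0.55. The 3 called genes with the largest change were PGRP-SD (-8.15) and GNBP3 (-6.15), both recognition proteins, and the protease gene Hayan (-4.15). The ligand gene spz averaged 7.58 coding TPM and the receptor gene Tl averaged 0.836 in SG, against 9.72 and 7.12 in PV with LpWF, although by counts spz was called higher in SG (2.79). Transcription factors known to set local antimicrobial gene expression in epithelia were lower in SG in 5 of 6 tested, among them GATAe (-11.3), pdm2 (-9.61) and nub (-7.81), which had 0.017 to 0.136 CPM in SG. In the JAK-STAT list 1 of 7 was called higher and 4 lower, with upd3 (-2.77), a cytokine gene, and Socs36E (-1.89), an inhibitor, among the lower and vir-1 (1.27) higher by counts. The coding TPM sum of that list was lower in SG, at 148 to 217 against 636 to 936 in PV with LpWF.

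Drsl2 and Drsl3 were highest in the PV libraries. These bulk libraries also held the 9 midgut enterocyte markers, at a sum of 15840 to 48190 coding TPM with LpWF and 16160 to 35950 in axenic PV. Which cells of the dissected tissue made Drsl2 and Drsl3 was not tested. Drsl2 had 455, 648, 291, 62 and 20 reads in PV with LpWF, or 181, 222, 92.2, 30.9 and 12.7 coding TPM. Axenic PV had 59, 144, 291, 5 and 164 reads, or 23.3, 84.6, 104, 2.60 and 56.5 coding TPM. The means of 107.8 ± 91.8 with LpWF and 54.1 ± 41.8 in axenic PV (SD, n = 5 each) ranked 693 and 1231 among protein-coding genes. Libraries of both PV groups spread over more than an order of magnitude, and the groups overlapped.

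Drsl3 followed the same order at a lower level. It had 162, 146, 139, 29 and 4 reads in PV with LpWF, or 48.6, 37.8, 33.2, 10.9 and 1.92 coding TPM, and 56, 39, 131, 4 and 57 reads in axenic PV, or 16.7, 17.3, 35.2, 1.57 and 14.8 coding TPM. The means were 26.5 ± 19.4 with LpWF and 17.1 ± 12.0 in axenic PV (SD, n = 5 each). Drsl2 exceeded Drsl3 in each of the 10 libraries, by 2.77 to 6.62 times with LpWF and by 1.40 to 4.89 times in axenic PV. The 3 libraries highest in Drsl3, PV with LpWF replicates 1 and 2 and axenic replicate 3, were also the 3 highest in Drsl2.

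Whether a commensal changed the family in PV was tested for the 3 members that passed the filter on low counts, and 0 of 3 were called, with 0 at an unadjusted p under 0.05 and 0 called by DESeq2. The background for this comparison was 0.0107%, or 1 of 9360 genes, and 9.70% at an unadjusted p under 0.05. Drsl2 averaged 7.09 ± 5.95 CPM with LpWF and 3.96 ± 3.00 in axenic PV (SD, n = 5 each), which is 0.85 higher on the log2 scale (standard error 0.91, edgeR adjusted p = 0.813). Drsl3 averaged 2.31 ± 1.70 and 1.65 ± 1.10 CPM in the same order, a log2 difference of 0.50 (standard error 0.75, adjusted p = 0.875). Drs averaged 0.701 ± 0.685 and 0.779 ± 1.08 CPM, a log2 difference of -0.10 (standard error 1.42, adjusted p = 0.989). The standard errors leave room for a severalfold change of Drs in either direction and for a severalfold rise of Drsl2. These libraries thus neither detected nor bounded tightly an effect of LpWF.

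Drs in PV was either moderate or nearly absent. In axenic PV it had 0, 39, 87, 0 and 0 reads, which is 0, 13.9, 18.8, 0 and 0 coding TPM. Over both PV groups, 5 libraries had 34 to 87 reads and the other 5 had 0 to 2. A count of 0 in axenic PV replicate 1, with 31910278 reads on genes, allows up to 0.720 coding TPM at the floor of 3 reads. The group means were 6.57 ± 6.55 with LpWF and 6.53 ± 9.11 in axenic PV (SD, n = 5 each).

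The spread of these members in PV moved with the share of ribosomal RNA. Pearson's r was taken over the 10 libraries on log2(coding TPM + 1), as a description. With the ribosomal RNA percentage it was -0.67 for Drs, -0.853 for Drsl2 and -0.877 for Drsl3. For Drs it was farther from 0 with the sum of the other Toll-regulated effectors (0.925) and with that of the PV markers (-0.871). With the PV marker sum it was -0.837 for Drsl2 and -0.808 for Drsl3. With the sum of the midgut enterocyte markers it was 0.513 for Drs, 0.56 for Drsl2 and 0.668 for Drsl3. In the 4 libraries above 25% ribosomal RNA, Drs was at 0 to 0.603 coding TPM, and Drsl2 and Drsl3 were at 2.60 to 56.5 and 1.57 to 14.8. In the 6 libraries below 25% Drs ranged from 0 to 18.8, Drsl2 from 23.3 to 222 and Drsl3 from 16.7 to 48.6. The summed PV markers ran from 22370 to 33100 in the 4 libraries against 15610 to 25050 in the 6, and the fat body markers from 1057 to 2506 against 1967 to 3366. Within the libraries below 25%, 3 in each group, the log2 fold changes with LpWF were 1.09 for Drsl2, 0.65 for Drsl3 and -0.17 for Drs, with adjusted p of 0.600, 0.522 and 0.977 from edgeR. Within the libraries above 25%, 2 in each group, they were -0.53 for Drsl2 and -0.44 for Drsl3, with adjusted p of 0.962 and 0.959. The part of ribosomal RNA or of tissue make-up in the spread was not tested.

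**Figure D4:**
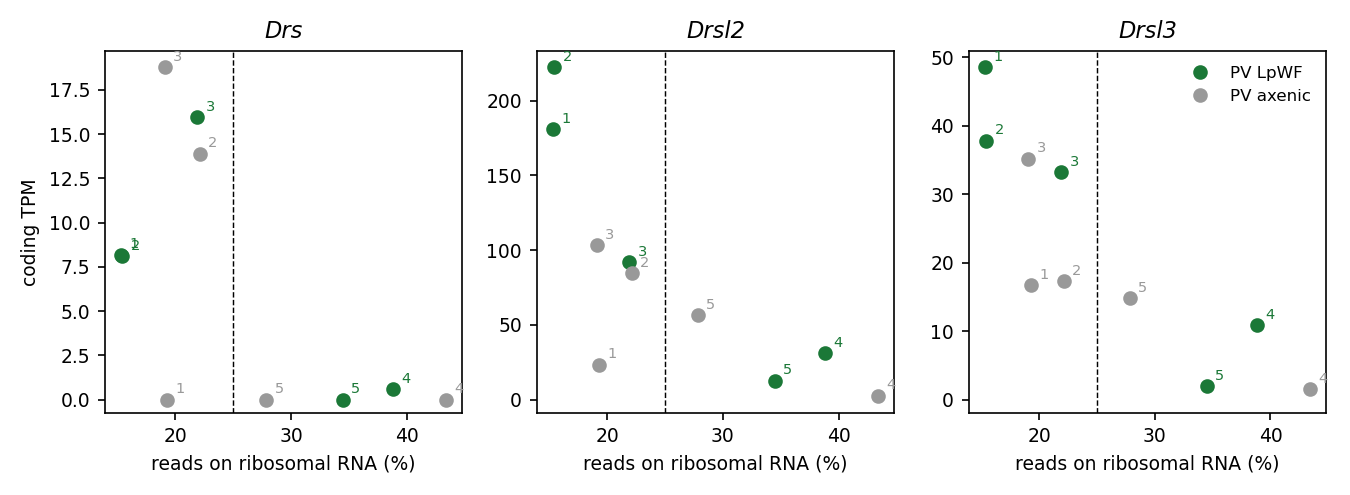
Coding TPM of Drs, Drsl2 and Drsl3 in the 10 PV libraries against the percentage of reads on ribosomal RNA, with replicate numbers beside the points and a dashed line at 25%. Green points are PV with LpWF and grey points axenic PV. The highest values of all 3 genes lie left of the line, and Drs is at 0 to 0.603 in the 4 libraries right of it.

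Other immune genes differed in how they moved in PV with LpWF. All 15 IMD-regulated effectors tested had positive log2 fold changes, with a median of 2.11 beside 0.00 over all genes, and 8 were under an unadjusted p of 0.05, but edgeR called 0 of them and DESeq2 called 1 of 14. In the same comparison the fat body markers had negative log2 fold changes in all 6 tested, with a median of -0.76, of which 4 were under an unadjusted p of 0.05, edgeR called 0 and DESeq2 called 1 of 7 lower. The midgut enterocyte markers were positive in 7 of 9, with a median of 0.79, 1 under an unadjusted p of 0.05 and 0 called by either tool. The part of these markers in the values of the members and other immune genes was not tested. The smallest p-values of the IMD-regulated effectors were those of pirk, a feedback inhibitor (1.36, adjusted p = 0.380), and PGRP-LB (0.59, adjusted p = 0.3996). The other Toll-regulated effectors were divided, with 6 of 12 positive, a median of 0.01 and 0 called by either tool, and 0 of them were under an unadjusted p of 0.05. The smallest p-values there belonged to BomT2 (-0.66) and BaraA2 (1.27), with adjusted p of 0.588 and 0.637. Of 20 Toll components edgeR and DESeq2 both called 0, and 3 were under an unadjusted p of 0.05, with spz (-0.29) and cact (-0.25), which encodes the inhibitor of the NF-kappaB factors, at the smallest p. In the JAK-STAT list both tools called 0, 1 of 7 was under an unadjusted p of 0.05, and Socs36E stood at 0.35 (adjusted p = 0.495).

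In crop, Drsl2 and Drsl3 were lower than in PV and Drsl5 was the most abundant member by its mean. Drsl2 had 3, 0 and 6 reads in crop, or 2.07, 0 and 4.51 coding TPM, and Drsl3 had 0, 0 and 2 reads. Neither overlapped with PV with LpWF, and 25.4% of all genes tested lay wholly below PV in crop in this way. Of the 4 members tested, 2 were called lower and 0 higher, against a background of 25.5% of genes called lower and 26.1% higher. The log2 fold change was -6.45 for Drsl2 (standard error 1.35, edgeR adjusted p = 0.00582) and -6.79 for Drsl3 (standard error 1.35, adjusted p = 0.00294). Since Drsl3 rests on 2 reads in crop, its summed rate is better given as 148 times higher in PV with LpWF than in crop, with a 95% exact interval of 40.9 to 1230 for counting error only. Crop was sampled by 3 libraries of 18186391 to 24760775 reads on genes, and 3 reads of Drsl2 would be worth 2.07 to 2.77 coding TPM in them.

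Drsl5 had 43, 11 and 28 reads in crop, or 21.6, 7.40 and 15.3 coding TPM. It had 21, 6, 4, 1 and 1 reads in PV with LpWF, or 6.08, 1.50, 0.923, 0.363 and 0.462 coding TPM, and 9, 6, 0, 2 and 13 reads in axenic PV, or 2.59, 2.57, 0, 0.757 and 3.27 coding TPM. In coding TPM SG libraries were at 0.151, 0 and 0, and axenic PV replicate 3 was also at 0. On this scale the lowest crop library, at 7.40, was just above the highest PV library, at 6.08. With the 10 highest genes left out of the total the 2 tissues overlapped, at 8.76 in crop replicate 2 and 10.4 in PV with LpWF replicate 1. By counts crop and PV with LpWF overlapped, because PV replicate 1 reached 0.713 CPM and the lowest crop library 0.455. The log2 fold change was 1.95 (standard error 0.81), and it was not called (edgeR adjusted p = 0.0713). Without PV with LpWF replicate 1 it was 3.08 and was called (adjusted p = 0.00401), whereas without other single libraries the lowest value was 1.58.

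Drsl5 was called lower in SG than in crop, at 0.0426 ± 0.0738 CPM in SG and 0.640 ± 0.298 in crop (SD, n = 3 each), with a log2 difference of -3.93 (standard error 0.98, edgeR adjusted p = 0.00471). SG held 2 reads in all, and the summed rate was 17.8 times higher in crop (95% exact interval for counting error only, 4.78 to 150). Drs and Drsl5 were the 2 members tested between SG and crop, and they differed in opposite directions.

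**Figure D5:**
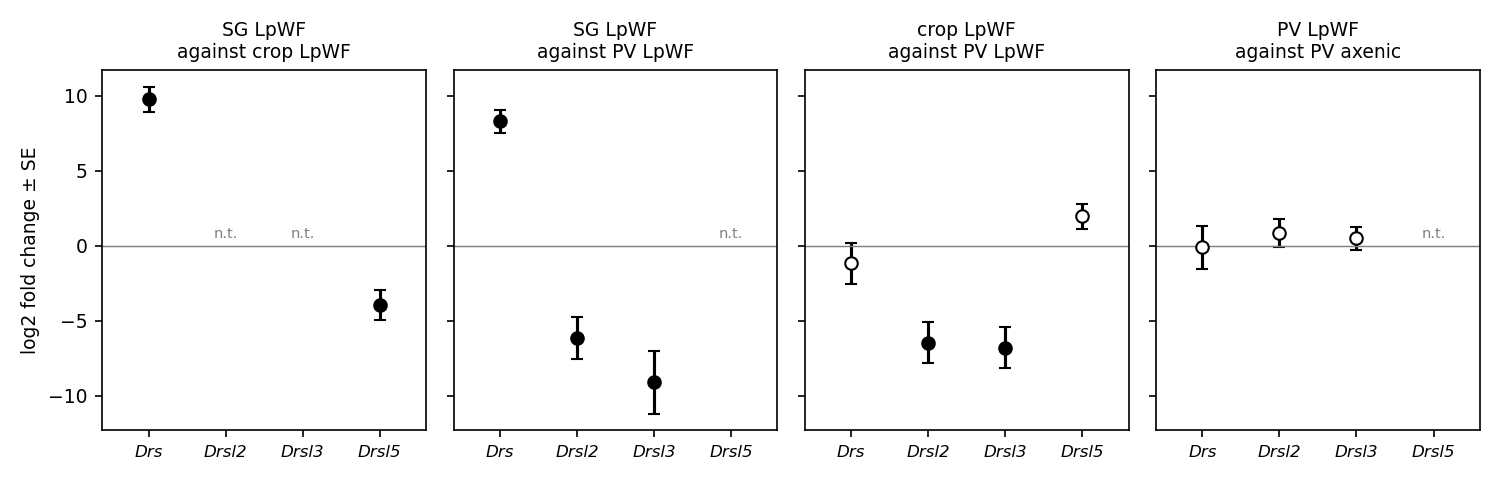
Log2 fold change with its standard error for the members in each comparison, from read counts with edgeR. Filled circles passed an adjusted p of 0.05, open circles did not, and n.t. marks a member that did not pass the filter on low counts. Drs is at 8.28 and 9.76 in SG, Drsl2 and Drsl3 are below 0 against PV with LpWF in SG and crop, and no member passed between PV with LpWF and axenic PV. The Drsl3 value in SG comes from 0 SG reads and depends on the prior count.

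Against PV with LpWF, Drsl2 and Drsl3 were also called lower in SG. Of 3 members tested there, Drs was called higher and the other 2 lower. Drsl2 averaged 0.0746 ± 0.0653 CPM in SG (SD, n = 3) and 5.69 ± 4.80 in PV (SD, n = 5), with a log2 difference of -6.14 (standard error 1.41, edgeR adjusted p = 0.00522). Drsl3, with 0 SG reads against 480 in PV, was at least 44.7-fold lower, taking 3 reads over the SG group as the floor (adjusted p = 0.00722).

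Drs was low in crop although many other targets of Toll were not. Its log2 fold change against PV with LpWF was -1.18 (standard error 1.39, edgeR adjusted p = 0.515), and the libraries overlapped. Of 16 other Toll-regulated effectors tested, 10 were called higher in crop and 0 lower, with a median log2 fold change of 1.82 beside 0.01 over all genes. The called genes with the largest change were BaraA2 (5.05), which encodes a Baramicin precursor, BomS1 (4.62) and BomT1 (3.37). DESeq2 called 10 higher and 1 lower of 17. Of 20 Toll components 16 were called higher in crop and 3 lower, with the protease gene grass at 3.87, the recognition gene GNBP1 at 2.82, and PGRP-SD at -6.50. Of 15 IMD-regulated effectors 10 were called lower and 1 higher, with DptA at -11.1 and DptB at -9.49. Among regulators of local expression pdm2 (-4.04), GATAe (-3.85) and nub (-3.78) were called lower, and vvl, whose product is known to act on antimicrobial genes in epithelia, higher (1.68). In SG the log2 fold change of vvl against PV with LpWF was -4.48.

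Drsl1, Drsl4 and Drsl6 were at or near 0 throughout. Drsl6 had 7 reads in crop replicate 1, or 2.93 coding TPM, and 4 reads in SG replicate 2, or 0.224 coding TPM, and 0 reads in the other 14 libraries. Drsl1 had 0 reads in all 16 libraries. Its transcript is 210 bases long, and the deposited effective length, which allows for the fragment size assumed by Salmon, was 10.2 bases. A count of 0 therefore allows up to 2.26 to 2.53 coding TPM of Drsl1 in SG, 16.9 to 22.6 in crop, 7.75 to 15.5 in PV with LpWF and 8.44 to 14.4 in axenic PV. Its absence was thus weakly bounded outside SG. The effective lengths of the others were 73.1 bases for Drsl4, 83.0 for Drsl2, 110 for Drsl3, 114 for Drsl5 and 137 for Drs and Drsl6, the same in every library. They enter levels compared between members and, through the total over all coding genes, levels compared between libraries. With full transcript lengths the SG mean of Drs was 63.2 times that of PV with LpWF, against 37.9 times in coding TPM. With full transcript lengths in their place, Drsl2 averaged 44.2 and Drsl3 13.3 coding TPM in PV with LpWF, and Drs 240.7 in SG, and Drs, Drsl2 and Drsl5 still led by mean in SG, PV and crop.

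The order of levels differed between Drs, the pair Drsl2 and Drsl3, and Drsl5. For Drs, SG was above the rest, and crop, PV with LpWF and axenic PV did not differ beyond their spread. For Drsl2 and Drsl3 the 2 PV groups were highest and overlapped each other, with crop and SG at or near the floor. For Drsl5 crop was highest by mean, and the 2 PV groups overlapped at means of 1.87 and 1.84 coding TPM with and without LpWF. SG had the lowest mean, on 2 reads in all. Drsl5 did not pass the filter for SG against PV with LpWF. Without the filter it was not called there (log2 fold change -2.01, edgeR adjusted p = 0.244).

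Genes with the most similar pattern to the expressed members were sought among 8305 protein-coding genes over the 13 PV and crop libraries, by Pearson's r of log2(coding TPM + 1). These values are descriptions, since the libraries share tissue, depth and ribosomal RNA content. For Drs the closest were CG4872 (r = 0.868), Mtk (0.850), which encodes the antifungal peptide metchnikowin, CG42846 (0.838), CG13004 (0.838) and MFS14 (0.829). For Drsl2 they were CG6041 (r = 0.921), CG44013 (0.911), CG4577 (0.905), Tsp29Fb (0.894), a tetraspanin gene, and Prip (0.892), a water channel gene. For Drsl3 they were Tsp29Fb (r = 0.935), CG44013 (0.934), nst (0.928), Acp54A1 (0.927) and CG4577 (0.927), so 3 of its 5 were also among the 5 of Drsl2. For Drsl5 they were Wdr59 (r = 0.928), LKRSDH (0.928), CG10898 (0.919), CG8613 (0.918) and CG14483 (0.918), all with higher mean coding TPM in crop than in either PV group.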

How the data were processed

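Single-end RNA-seq reads were quantified by the authors with Salmon on Ensembl release 98 of BDGP6, and a table per library was deposited. The deposited estimated counts are not normalized. TPM values were scaled by the authors over all transcripts, and the deposited effective length is in bases. Both were summed over the transcripts of each gene (33704 transcripts, annotation of Ensembl release 115). No gene was found there for 271 of them, with 0.128 to 0.257% of reads. Counts were rounded.

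Libraries were grouped by tissue and treatment as labelled. The tests used edgeR 4.0.16 under R 4.3.3 (TMM, filterByExpr, robust quasi-likelihood F tests) within the 2 groups compared, with Benjamini-Hochberg adjustment over all genes tested. Standard errors were derived from the log2 fold change and its F statistic. Read intervals are exact binomial at 95%, and a count of 0 was given a floor of 3 reads. Both cover counting error only. Members and gene lists were chosen with earlier results of these data known. The 7 members were named in every comparison. From the other lists up to 3 called genes with the largest change were named, or the 2 with the smallest p, and others were named after their values were seen. Of the JAK-STAT list, upd2 matched no gene. Marker lists are given where they bear on a member.

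Alternatives were DESeq2 1.42.0 and its size factors, a filter at 1 count in any library, protein-coding genes only, a replicate block, a term for and a split by ribosomal RNA, other level scales, and leaving out each library. Levels over full transcript length were added after seeing the data. No library copied another of its group, since counts of each pair differed by at least 21.8 times the counting variance. On data simulated for PV with LpWF against axenic PV over 9240 genes with 200 changed, 75.4% of those changed by 1 on the log2 scale and 93.7% of those changed by 2 were recovered, and 10 unchanged genes were called. These shares are over genes of all levels and do not describe the 3 members tested, whose log2 fold changes had standard errors of 0.75 to 1.42. Promoter and protein sequences were not analysed here. Python 3.11.15 with pandas 2.3.3, numpy 2.4.6 and matplotlib 3.10.9 was used for levels and figures.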

Additional observations from a re-analysis of the deposited data

Results flagged for a closer look

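Drsl5 in PV with LpWF replicate 1 stood apart from the other 4 libraries of its group, at 6.08 coding TPM with the next highest at 1.50. The gap was 0.801 of the group's range, above the 95% limit of 0.71 for 5 samples in Dixon's test. Of 10 sets of a member in a PV group that could be looked at, this was the 1 past the limit, and chance flags about 1 in 20. It rests on 21 reads, and it is the library whose removal made the Drsl5 difference between crop and PV with LpWF pass the threshold.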

How the results depend on the processing

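The calls of Drs, Drsl2 and Drsl3 between tissues kept their direction and passed the threshold under every alternative run. Leaving out each library gave 2 to 3 members called in crop against PV with LpWF, where Drsl5 was added without PV with LpWF replicate 1 (3.08), 3 in SG against PV with LpWF, 2 in SG against crop, and 0 in PV with LpWF against axenic PV. Drsl4 was added in both SG comparisons by DESeq2 and by the filter at 1 count in any library. In PV with LpWF against axenic PV the sign of Drs was not stable. Its log2 fold change was 0.65 with a replicate block, 0.051 with a term for ribosomal RNA, and -0.68 to 0.84 when each library was left out, at adjusted p of 0.856 to 0.998. Within libraries over 25% ribosomal RNA that of Drsl2 was -0.53 and that of Drsl3 -0.44, where 2 libraries stood in each group. The cause was not tested.

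Levels moved with the scale by construction. Leaving the 10 highest genes out of the total gave 2193 for Drs in SG and 30.2 for Drsl3 in axenic PV. TMM-normalized CPM, which is not divided by length, gave 7.01 and 3.89 for Drsl2, and 2.28 and 1.62 for Drsl3, in PV with LpWF and axenic PV, and 0.661 for Drsl5 in crop. Drsl5 in crop was 6.66 in deposited TPM and 6.52 over full transcript length.

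Over all genes, PV with LpWF against axenic PV gave 1 call in the main test, 51 with DESeq2, 34 with the replicate block, 14 with the ribosomal RNA term and 10 without PV with LpWF replicate 5. Replicate numbers did not pair the libraries, since same-numbered PV libraries correlated at 0.02 to 0.44 and 1 of 5 correlated best with its own number. The block changed no call of a member. In SG against PV with LpWF the median of all genes was -0.20 with DESeq2 size factors and -0.46 with the filter at 1 count. Depth limits Drsl1, Drsl4 and Drsl6, with at most 7 reads in any library.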
